A study of Homo sapiens
Rattus norvegicus and Homo sapiens with 10 samples.

Results

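Cadherins and protocadherins are cell-surface proteins that hold neighbouring cells together or let them recognise each other. The 89 rows described here were taken by gene symbol from the 62754 rows of the table: numbered CDH genes, numbered PCDH genes, and the alpha, beta and gamma protocadherin clusters. They comprised 5 type I cadherins, 13 type II cadherins, the GPI-anchored CDH13, 2 cadherins of the 7D group (CDH16 and CDH17), 2 other CDH genes (CDH23 and CDH26), 12 non-clustered protocadherins, 16 alpha, 16 beta and 22 gamma protocadherins. One of the rows, PCDHA14, is a transcribed pseudogene in GENCODE release 29 and had no count in any library.

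RNA was sequenced from U251N, an established human glioblastoma line, implanted into the brains of adult female RNU/RNU rats, an athymic strain that lacks the T cells needed to reject human tissue. The 3 primary tumours were not ablated, and the 3 recurrent tumours grew back in animals whose tumour had been heated through a laser probe under magnetic resonance imaging (laser interstitial thermal therapy, LITT). Brain labelled tumour-free gave 3 controls, of which 1 was a failed graft and 2 were procedural, and 1 library came from the line in culture. All grafts came from the same line, and the bulk tissue held rat as well as human RNA, so fewer cells of a kind and less RNA per cell cannot be told apart in any value below.

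Classical cadherins bind the same or a similar cadherin on the next cell through calcium-dependent extracellular repeats. They link to actin through beta- and alpha-catenin, while p120-catenin helps to hold them at the membrane. Type I members such as E-cadherin (CDH1) and N-cadherin (CDH2) make strong junctions, and type II members have a different adhesive interface. Non-clustered protocadherins do not bind beta-catenin, and several act in axon growth and cell movement. In the clustered loci each neuron uses a few of many variable first exons, which gives its surface an identity; alpha and gamma transcripts then splice to exons shared by their whole cluster, while each beta gene is a single coding exon.

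This shared structure limits how well reads can be assigned to a single member, and the sequences show where. In the 22 gamma genes the same 3 constant exons followed the variable exon. The ends of 3 of the variable exons, from the gamma members with the highest levels in the tumours, are printed in lower case, followed in capitals by the start of the constant exon at chr5:141494807-141494846 (GRCh38, plus strand, GENCODE release 29 transcripts, 5′ to 3′). The lower-case parts lie at chr5:141478507-141478546 for PCDHGC3, chr5:141405337-141405376 for PCDHGA9 and chr5:141362517-141362556 for PCDHGB2.
PCDHGC3: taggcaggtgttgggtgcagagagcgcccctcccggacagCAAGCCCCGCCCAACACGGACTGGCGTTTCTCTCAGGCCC
PCDHGA9: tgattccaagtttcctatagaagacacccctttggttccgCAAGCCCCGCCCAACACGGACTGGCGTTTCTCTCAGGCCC
PCDHGB2: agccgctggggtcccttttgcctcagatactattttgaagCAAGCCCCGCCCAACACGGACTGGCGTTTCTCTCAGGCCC
A read inside the capitals fits every gamma gene, and only a read that reaches the lower-case part tells them apart. The first coding exon held 2430 bases in PCDHGC3, 2424 in PCDHGA9 and 2421 in PCDHGB2, against 372 coding bases in the shared exons.

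Beta genes share no exon but are close copies of each other. The pair with the most shared 31-base words was PCDHB8 and PCDHB13, with 1173 such words, and their longest identical coding run was 453 bases. The capitals mark the end of that run and the lower case is what follows, at chr5:141178448-141178527 for PCDHB8 and chr5:141214537-141214616 for PCDHB13 (GRCh38, plus strand, same transcripts).
PCDHB8: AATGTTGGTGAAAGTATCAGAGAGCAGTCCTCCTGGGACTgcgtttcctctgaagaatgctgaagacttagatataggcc
PCDHB13: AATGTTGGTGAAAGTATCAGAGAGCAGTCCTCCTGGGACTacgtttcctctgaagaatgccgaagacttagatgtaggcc
Of the 31-base words of PCDHB8, 43.3% also occurred in PCDHB13. Over all members of a class, the median percentage of words found in no other gene was 44.0% for alpha, 54.9% for gamma and 77.2% for beta, against 97.2% for type I, 99.1% for type II and 99.9% for non-clustered protocadherins. Counts of single alpha, beta and gamma genes therefore depend on how the counting tool divided shared reads. Among the non-clustered members PCDH20 had 4.21% of such words, because a second gene model overlaps it, and the row of that model was at 0 in every library.

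The tumour libraries held 20321590 to 39714714 estimated counts each and the controls 1358753 to 4158124, while the culture had 65058642. Which classes of sorted reads entered the counts is not stated in the labels. Graft reads made up 42.52%, 45.38% and 64.40% of the 3 primary tumours and 29.44%, 42.67% and 33.05% of the 3 recurrent ones. Control replicate 3 stood apart: it had 4.90% graft reads against 0.33% and 0.55% in the others, and 7463 counts on the members against 449 and 386. Against its label it carried transcripts of the line: glioma and astrocyte markers summed to 6784 CPM (counts scaled by library size), with 10802 counts of VIM against 38 and 316 in the other controls, and gamma protocadherins to 884 CPM against 873 in culture. Structural small RNAs held 92.6% and 89.8% of the counts of control replicates 1 and 2, 31.7% of control replicate 3, and 6.41% to 14.5% in the tumours. The same markers summed to 8969 to 10394 CPM in the primary and 8537 to 8972 CPM in the recurrent tumours, with OLIG2 near 0. Of the 9 tested 7 were lower in the recurrent tumours, 4 of them at an unadjusted p under 0.05 (GFAP at -0.81, FABP7 at -1.08, S100B at -0.75 and VIM at -0.33 on the log2 scale), and edgeR called 0 after adjustment. The part of that shift in the member results was not tested. All 4 blood markers and 4 of 7 microglial markers were at 0 in every tumour. Neuronal markers summed to 873 to 1433 CPM in the primary and 769 to 1023 CPM in the recurrent tumours, and were mostly NEFL, which the culture also held at 477 CPM. Oligodendrocyte markers summed to 164 to 182 and 125 to 204 CPM, beside 135 CPM in culture. They were mostly CNP, which the culture held at 133 CPM.

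In the tumours 64 to 67 of the 89 members had a count, 9 were at 0 in all 6 tumours, and 8 of those were at 0 in all 10 libraries. Together the members held 1661 ± 238 CPM in the primary and 1645 ± 190 CPM in the recurrent tumours (SD, n = 3 each, scaled by TMM). Levels of different genes are compared here as TMM-scaled CPM per kilobase of the longest coding transcript. PCDHGC3, a gamma protocadherin of the C type, had the highest level at 116 ± 25.8 (SD, n = 6 tumours). CDH2, the N-cadherin of neural and mesenchymal cells, followed at 55.6 ± 4.55, and the 2 did not overlap on this scale. With the median transcript length in place of the longest, however, CDH2 ranked 1 and PCDHGC3 ranked 2.

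PCDH10, a non-clustered protocadherin whose tail binds the WAVE actin regulator, stood at 26.2 ± 3.66 CPM per kilobase. CDH11, a type II cadherin of mesenchymal cells, stood at 16.7 ± 3.49 and PCDH1, known from airway epithelium, at 12.9 ± 1.91, with overlapping ranges. PCDHGB2 at 10.2 ± 1.96, PCDHGA9 at 9.01 ± 1.77 and PCDH17 at 7.69 ± 2.31 also overlapped. The last 4 of the 12 leading members were CDH4 at 5.08 ± 1.12, CDH6 at 3.85 ± 0.90, CDH3 at 3.09 ± 1.004 and CDH24 at 2.29 ± 0.32. The first 4 had the same order in culture, where PCDHGC3 stood at 161, CDH2 at 50.6, PCDH10 at 37.6 and CDH11 at 17.8 CPM per kilobase. The order and the set of 12 depend on the length used. With the median transcript length PCDH17 ranked 4 and PCDH10 ranked 5 in the tumours, PCDHB2 moved from rank 17 to 7, and CDH24 fell to rank 19.

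**Figure D1:**
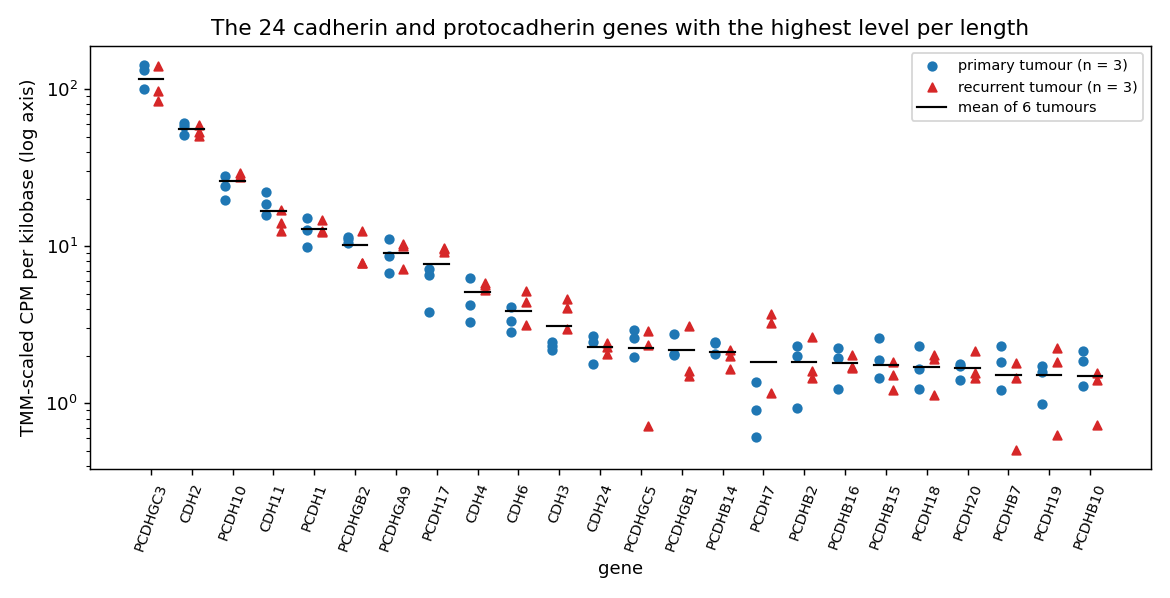
TMM-scaled CPM per kilobase (log axis) of the 24 members with the highest mean over the 6 tumours; circles are primary and triangles recurrent tumours, and the line is the mean of all 6. PCDHGC3 and CDH2 lie above the rest, and CDH24 ranks 12 at 2.29.

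The comparison the study was built on is recurrent against primary tumours. No member passed edgeR's quasi-likelihood test at an adjusted p of 0.05: 0 of 54 tested members were called, beside 1 of all 15928 genes (0.00628%). DESeq2 called 2 of the 54, PCDH7 and PCDH15, beside 0.735% of all genes, and 0 members passed by limma-voom. At an unadjusted p under 0.05 edgeR gave 6 of 54 members (11.1%), beside 8.38% of all genes. Of those, 5 were higher in the recurrent tumours, beside 4.59% of all genes in that direction, and 1 was lower, beside 3.79%. The groups did not overlap for 8 of the 54 (14.8%), near the 15.4% of all genes: 6 were higher in the recurrent tumours (7.94% of all genes) and 2 lower (7.42%). In direction 29 members were higher and 25 lower. Their median log2 fold change was 0.04, beside -0.01 over all genes, and it ran from -0.18 to 0.18 when single libraries were left out (recurrent replicate 1 for the lowest, primary replicate 1 for the highest). The other 35 members had too few counts to be tested: all 16 alpha, 8 type II, 3 beta, 2 non-clustered, 2 of the 7D group, 2 other CDH genes, 1 gamma and CDH1.

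**Figure D2:**
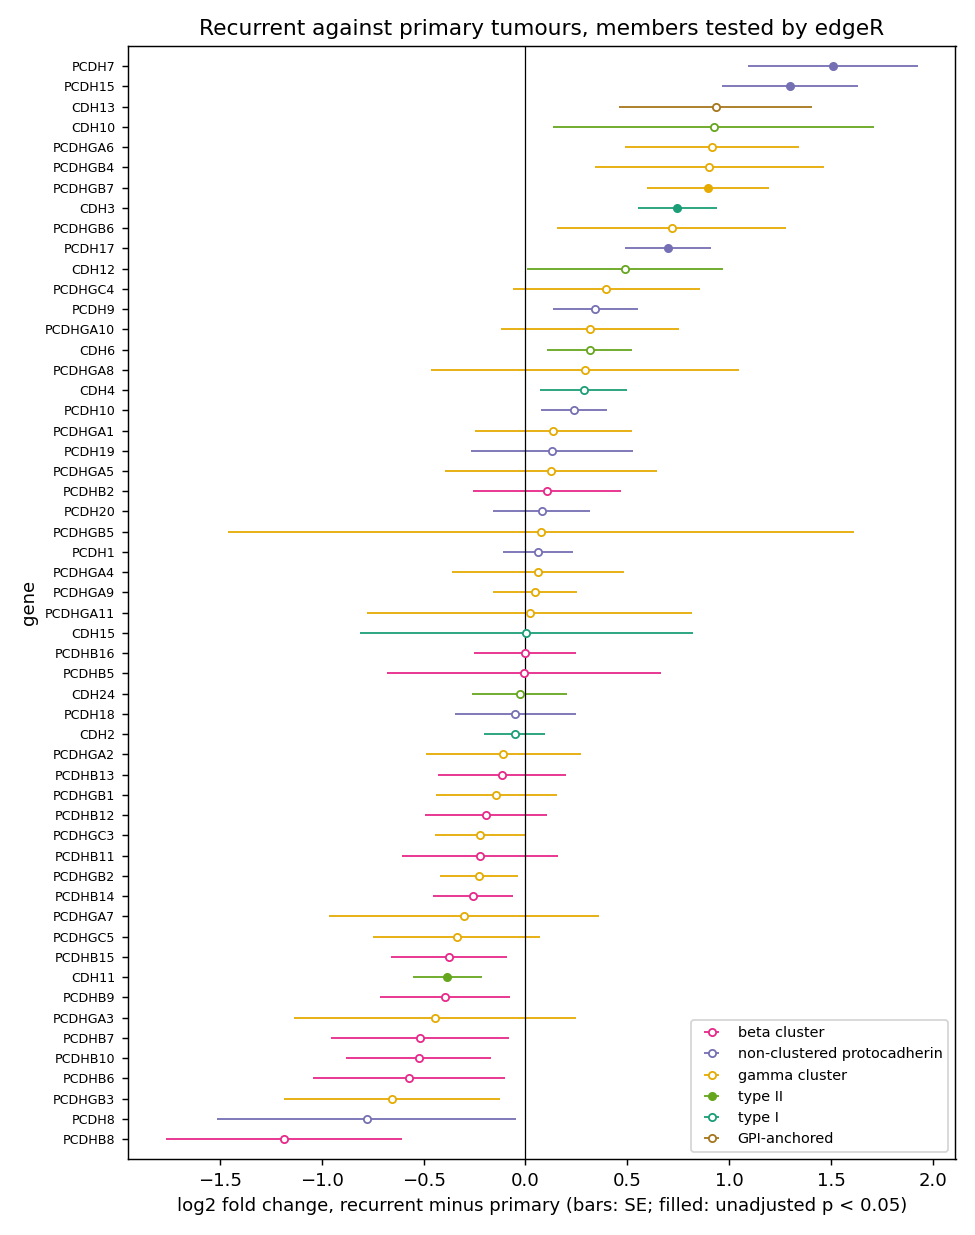
Log2 fold change of recurrent over primary tumours for the 54 tested members, with bars of 1 SE, coloured by class; filled points had an unadjusted p under 0.05. The points lie on both sides of 0 and the filled ones are CDH3, CDH11, PCDH7, PCDH15, PCDH17 and PCDHGB7.

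Among the type I cadherins CDH2 had the highest level. It stood at 251.5, 220.1 and 263.9 CPM in the primary tumours and 258.2, 218.6 and 232.4 in the recurrent ones, so that the groups overlapped. The log2 fold change was -0.05 (SE 0.15, edgeR adjusted p = 0.929). CDH3, the P-cadherin of basal epithelium, stood at 10.7, 12.1 and 11.4 CPM in the primary and 14.7, 22.7 and 19.8 CPM in the recurrent tumours. All 3 recurrent tumours lay above all 3 primary ones, with a log2 fold change of 0.75 (SE 0.19, edgeR adjusted p = 0.43). CDH4, the R-cadherin first described in retina, had a log2 fold change of 0.29 (SE 0.22) and overlapping groups. It was 0.57 without primary replicate 1 and 0.09 without primary replicate 2. CDH1, the E-cadherin of epithelia, had 53, 0 and 10 counts in the primary tumours, 24, 0 and 9 in the recurrent ones and 26 in culture. The controls had 22, 10 and 0 counts at lower depth, and the rat-derived estimate described with PCDH7 was 18.6% to 160% of the CDH1 counts of a tumour with structural small RNAs left out and 2.10% to 18.2% with all counts kept. Of the epithelial markers EPCAM was at 0 in 4 tumours, whereas KRT8 was at 487 to 681 CPM. CDH15, the M-cadherin of muscle, had 4 to 22 counts in a tumour and none in the controls.

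Of the type II cadherins CDH11 was the one with an unadjusted p under 0.05. It stood at 153.4, 128.5 and 108.5 CPM in the primary and 116.4, 97.1 and 85.6 CPM in the recurrent tumours. The ranges overlapped, and the log2 fold change was -0.38 (SE 0.17, edgeR adjusted p = 0.590), and -0.25 without primary replicate 1. CDH6, known from kidney and neural crest, stood at 28.3, 23.9 and 35.0 against 26.9, 44.3 and 37.5 CPM (log2 fold change 0.32). CDH24 stood at 8.21 ± 1.66 against 8.04 ± 0.685 CPM. CDH10 was low, from 0.252 to 2.69 CPM over the 6 tumours, with a log2 fold change of 0.92 (SE 0.79) and overlapping groups. CDH5, the VE-cadherin of endothelium, had 0, 1 and 0 counts in the primary tumours, 2, 6 and 0 in the recurrent ones and none in the controls. The endothelial and mural markers summed to 14.6 to 39.4 CPM in the primary and 17.2 to 23.1 CPM in the recurrent tumours, with CLDN5 at 0. In culture the same markers summed to 14.3 CPM. CDH12 had 26 to 70 counts in each tumour. Of the other type II members CDH7, CDH8, CDH9, CDH18 and CDH22 had at most 17 counts in a tumour, and CDH19 and CDH20 had none. CDH23, a partner of PCDH15 in hair cells, had at most 7 counts in a tumour. CDH13, the T-cadherin, which is held by a lipid anchor and has no cytoplasmic tail, stood at 5.54, 1.82 and 2.33 CPM against 3.43, 8.42 and 6.62 CPM. Those groups overlapped (log2 fold change 0.93, SE 0.47), and the value was 1.56 without primary replicate 1 and 0.63 without recurrent replicate 2.

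The largest differences lay among the non-clustered protocadherins. Of the 10 tested, 8 were higher in the recurrent tumours (median log2 fold change 0.18), while 51.0% of all genes were lower. PCDH7 stood at 6.12, 9.29 and 4.10 CPM in the primary tumours and 7.92, 25.1 and 22.1 CPM in the recurrent ones. Recurrent replicates 2 and 3 were high while recurrent replicate 1 lay within the primary range. The log2 fold change was 1.51 (SE 0.42), with an edgeR adjusted p of 0.479 and a DESeq2 adjusted p of 0.0305. PCDH7 was also the leading member of control replicates 1 and 2, with 238 and 136 counts of the 449 and 386 on all members. From the control rates, with structural small RNAs left out, rat-derived counts were estimated at 20.7% to 116% of the PCDH7 counts of a tumour (median 52.1%, or 73.5% without control replicate 3). An estimate over 100% exceeds the counts seen, as in recurrent replicate 1. With all counts kept the estimate was 2.99% to 17.99% (median 7.83%). With the estimated rat counts taken off before the fit, an alternative chosen after seeing the data, the log2 fold change was 2.22 (SE 1.16). Of the 10 neuronal markers 5 were tested, 2 higher and 3 lower in the recurrent tumours (median log2 fold change -0.06). RBFOX3 stood at 1.31, 0.422 and 0.123 CPM in the primary and 5.50, 1.33 and 0.963 CPM in the recurrent tumours. RBFOX3 was highest in recurrent replicate 1. SYT1 stood at 9.20, 7.69 and 6.71 CPM in the primary and 7.06, 13.1 and 14.8 CPM in the recurrent tumours (log2 fold change 0.57, SE 0.28). The culture held SYT1 at 32.5 CPM. SNAP25 stood at 2.10 ± 0.600 and 1.41 ± 0.574 CPM, and GAD2 was at 0 in every library. The part of rat neurons in the PCDH7 result was not tested.

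PCDH15, a component of the tip links of inner-ear hair cells, stood at 4.20, 3.29 and 6.58 CPM in the primary and 7.51, 15.3 and 11.99 CPM in the recurrent tumours. All recurrent tumours lay above all primary ones. The log2 fold change was 1.30 (SE 0.33), with an edgeR adjusted p of 0.43 and a DESeq2 adjusted p of 0.0322. The controls had 0, 0 and 4 counts. PCDH17, a synaptic protocadherin, stood at 58.9, 31.4 and 54.3 against 76.1, 78.6 and 80.3 CPM, again without overlap. Its log2 fold change was 0.70 (SE 0.21, edgeR adjusted p = 0.521), and the rat estimate was 2.00% to 7.53% of its counts.

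The recurrent replicates also differ in the prefix of the library name, which is NL for replicates 2 and 3 and IL for replicate 1 and the primary tumours. The labels do not say what the prefix stands for. With that prefix as a covariate, which sets recurrent replicate 1 alone against the primary tumours, the log2 fold change was 0.29 for PCDH7, 0.67 for PCDH15, 0.37 for CDH3 and 0.09 for CDH13. For CDH11 it was -0.16, and for PCDH17 and PCDHGB7 0.66 and 0.89. The sign turned for CDH6 (-0.12), CDH2 (0.075), CDH10 (-1.60), PCDHGC3 (0.18), PCDHGB2 (0.19), PCDH8 (0.18) and PCDHB7 (0.013). Adding the graft percentage instead gave 2.02 for PCDH15, 0.72 for CDH6 and -0.65 for CDH11, each over 1.5 times its value without it. The part of these 2 measures in the results was not tested.

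The other non-clustered members overlapped between groups. PCDH10 stood at 239.4, 166.3 and 205.8 CPM in the primary and 233.3, 249.1 and 239.4 CPM in the recurrent tumours (log2 fold change 0.24, SE 0.16). PCDH1 had a log2 fold change of 0.06 and PCDH20 of 0.08. PCDH8, which takes part in synapse remodelling, had a log2 fold change of -0.78 (SE 0.73) at 0.229 to 2.73 CPM. PCDH9 stood at 28.3, 28.5 and 35.5 against 28.4, 51.1 and 37.6 CPM (log2 fold change 0.34, SE 0.21). PCDH19, the gene of a female-limited epilepsy, stood at 16.9, 9.63 and 15.4 against 22.1, 6.10 and 17.97 CPM. PCDH18 stood at 6.63 to 13.8 CPM over all 6. PCDH11X and PCDH12 were each detected in 1 tumour, with 7 and 4 counts.

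**Figure D3:**
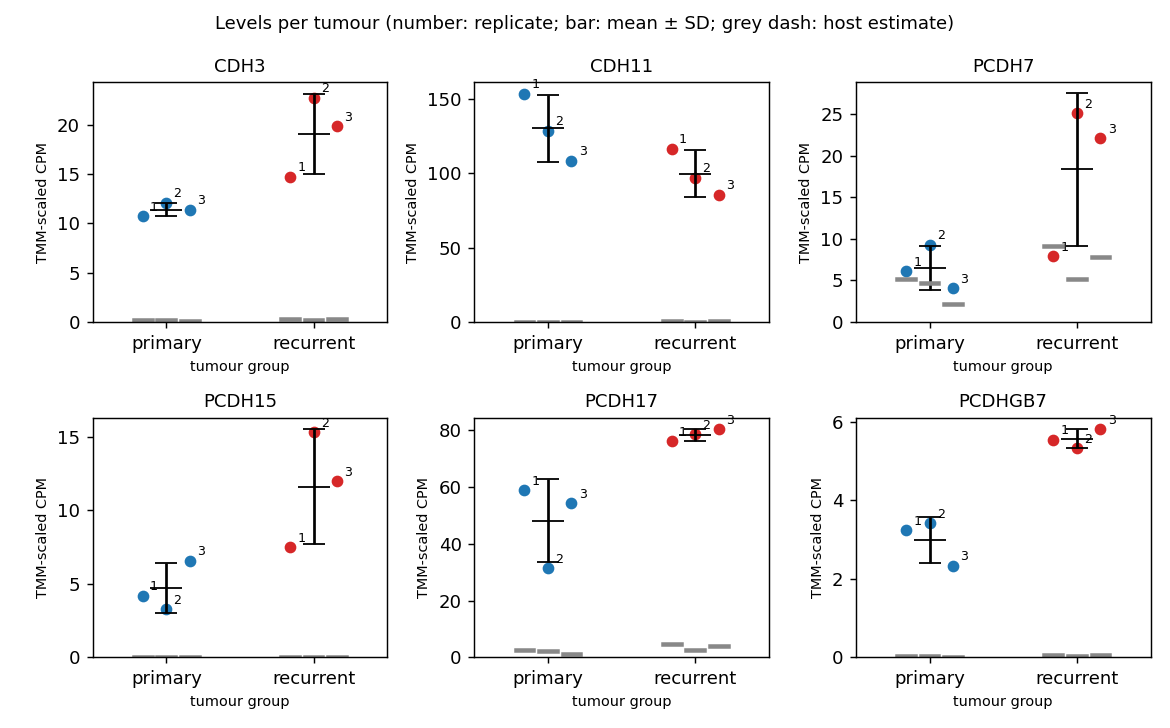
TMM-scaled CPM of 6 members in each tumour, with the replicate number at each point, the mean ± SD as a bar and the rat-derived estimate as a grey dash. Recurrent replicates 2 and 3 lie highest for PCDH7 and PCDH15, and in PCDH7 the grey dash of recurrent replicate 1 lies above its point.

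The clustered protocadherins were dominated by gamma. Alpha genes held 5 to 25 counts per tumour in all, against 21 in the deeper culture library. Gamma genes summed to 735 ± 122 CPM in the primary and 647 ± 177 CPM in the recurrent tumours, a ratio of 0.880. Beta genes summed to 76.5 ± 15.9 and 64.4 ± 13.9 CPM, a ratio of 0.842. In both clusters the groups overlapped. The lowest 3 sums fell on primary replicate 2 and recurrent replicates 2 and 3 in both clusters: 58.2, 50.6 and 64.2 CPM for beta and 596, 504 and 591 CPM for gamma. These 3 tumours also had the lowest RNA integrity numbers of the 6, at 7.8, 8.6 and 8.1 against 8.8 to 8.9, and the part of RNA quality in the sums was not tested.

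PCDHGC3 held 80.5%, 79.1% and 81.4% of gamma counts in the primary tumours and 79.2%, 78.3% and 77.5% in the recurrent ones. Its own level was 591 ± 106 and 507 ± 143 CPM, with a log2 fold change of -0.22 (SE 0.22). PCDHGB2 held 6.85% ± 0.727 and PCDHGA9 6.10% ± 1.102 of gamma counts over the 6 tumours. Their log2 fold changes were -0.23 and 0.05. The gamma gene with an unadjusted p under 0.05 was PCDHGB7, at 3.23, 3.42 and 2.33 CPM in the primary and 5.55, 5.34 and 5.82 CPM in the recurrent tumours. The groups did not overlap, and the log2 fold change was 0.90 (SE 0.30, edgeR adjusted p = 0.521). PCDHGA6 and PCDHGB4 did not overlap either, with log2 fold changes of 0.91 (SE 0.43) and 0.90 (SE 0.56) at no more than 2.37 CPM in any tumour. Of the 21 gamma genes tested 13 were higher and 8 lower (median 0.06). PCDHGC5, a second C-type gene, stood at 12.4, 9.38 and 14.0 against 13.8, 3.43 and 11.2 CPM. PCDHGB3 had the lowest gamma log2 fold change at -0.65 (SE 0.53). PCDHGB5 had 13, 19 and 1 counts in the primary tumours and 28, 0 and 0 in the recurrent ones, so a single tumour made up its recurrent counts.

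Beta genes leaned the other way: 12 of 13 tested were lower in the recurrent tumours, and their median log2 fold change was -0.26, beside 51.0% of all genes lower. These genes lie next to each other and share sequence, so they are not independent. PCDHB8 stood at 1.58, 2.62 and 1.43 CPM in the primary and 1.31, 0.762 and 0.401 CPM in the recurrent tumours, without overlap (log2 fold change -1.19, SE 0.58). PCDHB12 was the other beta gene without overlap, at 3.85, 3.59 and 3.91 against 3.48, 3.28 and 3.17 CPM. PCDHB6, PCDHB10 and PCDHB7 had log2 fold changes of -0.57, -0.52 and -0.52 with overlapping groups. PCDHB14 held the largest share of beta counts, 14.8% ± 1.47, followed by PCDHB16 at 13.0% ± 2.22. PCDHB2 was the beta gene that was not lower, at 0.11 (SE 0.36). PCDHB1 had no count in any library.

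**Figure D4:**
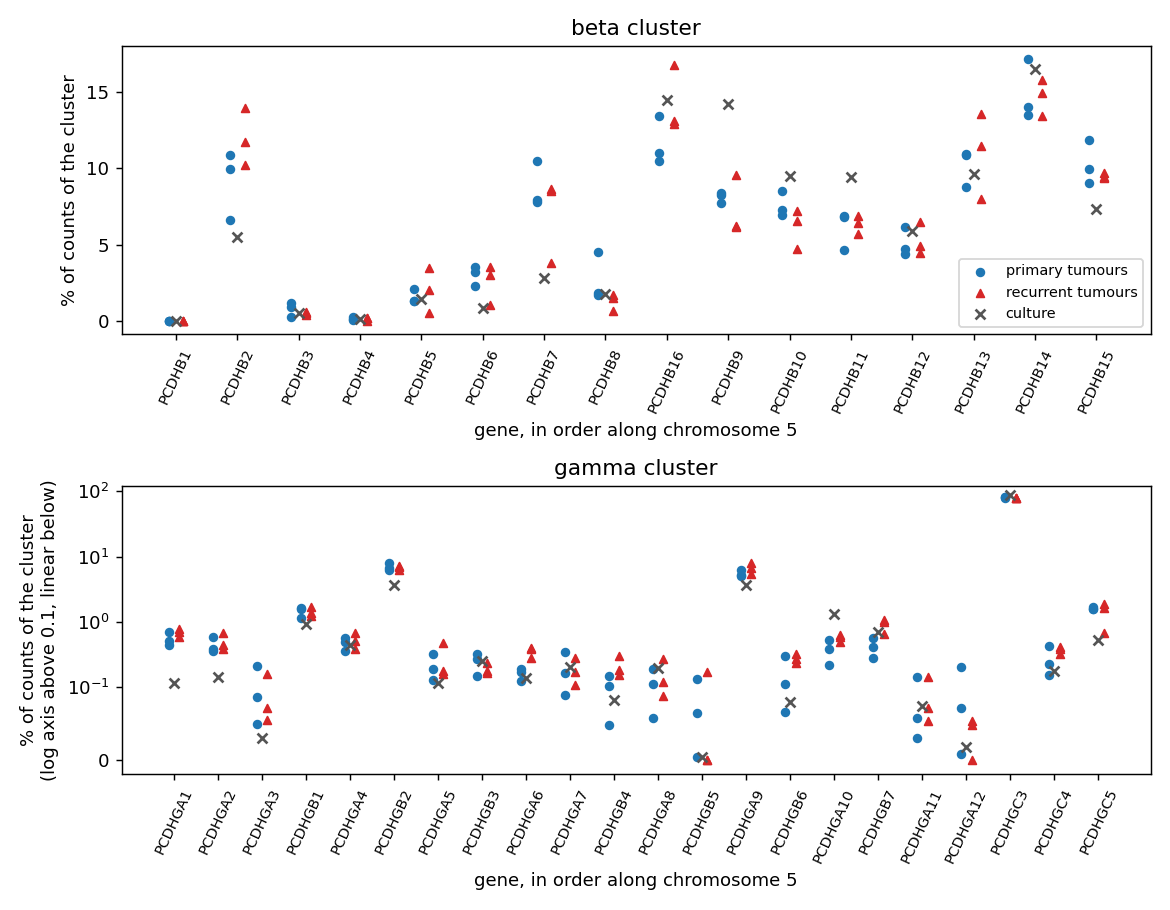
Percentage of the counts of the beta (upper) and gamma (lower) cluster held by each gene, in order along chromosome 5, for the primary tumours (circles), recurrent tumours (triangles) and the culture (crosses); the gamma axis is logarithmic above 0.1%. PCDHGC3 holds 77.5% to 81.4% of gamma counts in the tumours, and beta counts are spread over many genes.

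The mix of genes within each cluster was compared with that in culture. Across the 16 beta genes Spearman's rho between a tumour and the culture was 0.78 to 0.915, and between pairs of tumours 0.879 to 0.958. Across the 22 gamma genes it was 0.735 to 0.859 and 0.746 to 0.931. These are correlations across genes, which share reads and are no replicates. PCDHGC3 held 87.1% of gamma counts in culture, above each of the tumours, and PCDHGB2 and PCDHGA9 held 3.65% and 3.70%. PCDHB7 held 2.82% of beta counts in culture against 7.85% ± 2.22 in the tumours.

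Tumours could be set beside culture as a description only, since there was 1 culture library. On the log2(CPM + 0.5) scale, with library totals, a member was counted as different when it differed 4-fold and all 6 tumours lay on 1 side. Of 59 members with enough counts, 1 was higher, beside 0.637% of all genes, and 1 was lower, beside 1.10%. The higher one was PCDHB7, at 0.92 CPM in culture and 7.01, 4.30, 8.94, 6.64, 1.98 and 5.45 CPM in the tumours, a log2 difference of 2.01 (SD 0.68). It lay just past the limit, and fell short of it when any of primary replicates 1 and 3 and recurrent replicate 1 was dropped. The lower one was PCDH20, at 42.2 CPM in culture and 6.85 to 10.1 CPM in the tumours, a log2 difference of -2.34 (SD 0.19).

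In direction 38 of the 59 members (64.4%) had a tumour mean above culture, beside 43.8% of all genes, and their median difference was 0.33 against -0.08. All 14 beta genes with enough counts were above culture (median 0.79), as were 14 of 22 gamma genes (median 0.32) and 4 of 10 non-clustered protocadherins (median -0.38). The summed beta level was 70.5 ± 15.8 CPM in the tumours and 32.8 CPM in culture, while the summed gamma level was 691 ± 149 against 873 CPM. CDH4 stood at 89.6 CPM in culture, a log2 difference of -1.46 that did not reach 4-fold. CDH2 and CDH11 differed little, by 0.13 and -0.12.

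**Figure D5:**
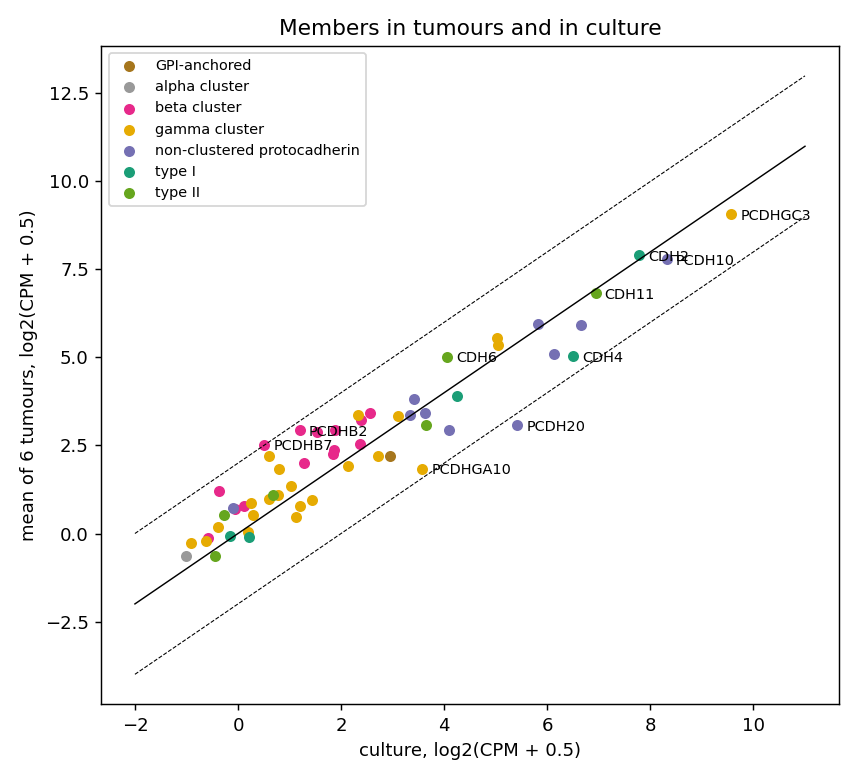
Mean of the 6 tumours against the culture on the log2(CPM + 0.5) scale for the 59 members, coloured by class, with lines at equality and at 4-fold. PCDH20 lies below and PCDHB7 above the 4-fold lines, and all beta genes lie above equality.

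Against the controls 58 members were tested and edgeR called 2 higher in the tumours (3.45%, beside 0.927% of all genes) and 8 lower (13.8%, beside 4.50%). The higher ones were PCDH20 (log2 fold change 2.49, SE 0.57, edgeR adjusted p = 0.0234) and PCDH15 (2.68, SE 0.71, edgeR adjusted p = 0.0494). Both had no count in control replicates 1 and 2 and passed the count filter only through the tumours. The share of 3.45% consists of them. PCDH15 was not called by DESeq2, by limma-voom or with structural small RNAs left out, nor in 8 of the 9 fits that left out 1 library. PCDH20 had 183 to 272 counts in a tumour and 0, 0 and 5 in the controls; its log2 fold change was 10.34 without control replicate 3, and at most 2.57 without any other library, and it was called in 6 of the 9 such fits. PCDH7 was lower in the tumours (-6.95, SE 0.97, edgeR adjusted p = 0.00158), with 238, 136 and 125 counts in the controls and 157 to 659 in the tumours. The others called lower were PCDH1 (-2.20, SE 0.49, edgeR adjusted p = 0.0222), CDH1, CDH8, CDH13, PCDH17, PCDH19 and PCDHAC2. Of these CDH1, CDH8 and PCDHAC2 had too few counts to be tested over the tumours alone. They passed the count filter only with the controls included, so their lower direction was largely set by the filter. The share of 13.8% includes them. PCDH1 was at -1.04 without control replicate 1 and was not called in 6 of the 9 fits without 1 library, while PCDH7 and PCDHAC2 were called in all 9. By limma-voom 0 members were called. PCDHAC2 had 11, 10 and 10 counts in the controls and 0 to 11 in the tumours, and CDH8 had 4, 4 and 3 against at most 3. PCDH19 had 0 and 1 counts in control replicates 1 and 2 and 345 in control replicate 3.

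The controls were scaled very unequally. TMM factors were 0.0962 and 0.194 for control replicates 1 and 2, against 1.39 for control replicate 3 and 1.68 to 1.91 for the tumours. The direction of some calls depended on that scaling. Library totals of control replicates 1 and 2 were mostly structural small RNAs. On library totals PCDH17 had a tumour mean of 63.6 CPM, above 47.8, 32.9 and 29.8 CPM in the controls. PCDH1 stood at 61.8 against 34.6, 20.0 and 72.4 CPM, and CDH13 at 4.74 against 2.21, 3.52 and 11.1 CPM. PCDH7 stayed lower in the tumours, at 12.5 against 175, 79.9 and 30.1 CPM. The median log2 fold change of the members was -0.34 (all genes 0.21), and 6.38 (all genes 1.15) without control replicate 3, whose member counts were led by PCDHGC3 (3045), CDH2 (899) and CDH11 (620). Leaving out 1 library at a time gave 2 to 9 called members, of which 2 to 6 were among the 10 called with all libraries. The 2 were left without primary replicate 2, and the 9, without control replicate 3, included PCDH9, PCDHGA9 and PCDHGC3. With structural small RNAs left out, the rat estimate exceeded 10% of the count in some tumour for 6 members: CDH1, CDH8, CDH13, PCDH7, PCDH12 and PCDHAC2. Of the 32 members with a mean tumour count over 100, that held for 2, CDH13 and PCDH7, beside 2.43% of all such genes. With all counts kept it held for 4 members (CDH1, CDH8, PCDH7 and PCDHAC2), and for 1 of the 32, PCDH7, beside 0.554%; the highest CDH13 estimate was then 1.396% in place of 11.8%.

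Genes that work with cadherins were read from lists. Of 46 partners 42 were tested in recurrent against primary tumours and 0 passed edgeR's adjusted threshold: 32 were higher and 10 lower (median log2 fold change 0.10). Of all genes tested 51.0% were lower. At an unadjusted p under 0.05 there were 3 higher and 2 lower, beside 4.59% and 3.79% of all genes. Of the catenins that tie cadherins to actin or hold them at the membrane, CTNNB1 had a log2 fold change of -0.19 (SE 0.15), CTNNA1 of 0.08 (SE 0.15) and CTNND1 of 0.33 (SE 0.20). Plakoglobin (JUP), a relative of beta-catenin, stood at 43.2 ± 10.4 CPM in the primary and 65.98 ± 10.78 CPM in the recurrent tumours (log2 fold change 0.61, SE 0.20, edgeR adjusted p = 0.521). SNAI2 and ZEB1, repressors of CDH1, stood at 49.4 ± 5.53 against 33.1 ± 7.06 CPM and at 77.02 ± 6.21 against 53.9 ± 11.5 CPM. The 5 factors of protocadherin promoter choice that were tested, among them CTCF and SMCHD1, were all higher by sign (median 0.21). So were the 5 nectin and afadin genes (median 0.20) and the 4 O-mannosyltransferases of cadherins (median 0.06). For SNAI2 and ZEB1 the log2 fold changes were -0.58 (SE 0.18) and -0.52 (SE 0.17), each with an edgeR adjusted p of 0.521.

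Of the 18 other members of the cadherin superfamily 12 were tested, 7 higher and 5 lower (median 0.06), and edgeR called none. FAT3, a giant cadherin of neurons, stood at 12.7 ± 3.08 against 26.2 ± 8.82 CPM (log2 fold change 1.05, SE 0.26, edgeR adjusted p = 0.408). CELSR1, of the planar polarity pathway, stood at 11.96 ± 2.56 against 18.6 ± 0.989 CPM. DCHS2 had a log2 fold change of -1.09 (SE 0.56). FAT1 had a log2 fold change of 0.02 (SE 0.21).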

How the data were processed

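The 10 libraries were strand-specific and depleted of ribosomal RNA. Their values were deposited as Salmon estimated counts in a single gene table, with no scaling between libraries. The submitters' processing notes name STAR, DESeq2, Salmon 1.10.3 and GRCh38. Per the labels, xengsort sorted graft from host reads; which of its read classes were counted is not stated in the labels. Of 62754 gene IDs 58261 matched GENCODE release 29, among them all 89 members. The table had 0 columns outside the series.

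Estimated counts were rounded to whole numbers. Recurrent and primary tumours were compared over the 6 tumours with edgeR 4.0.16 (R 4.3.3; TMM, filterByExpr, quasi-likelihood test, Benjamini-Hochberg adjustment over all genes tested, threshold 0.05), and tumours with controls in a second fit. DESeq2 1.42.0 and limma 3.58.1 (voom) were alternatives. CPM in the tumours are TMM-scaled, and those set beside culture use library totals. The limit for a gene with no count, 3 counts, corresponds to 0.0755 to 0.148 CPM per tumour and 0.721 to 2.21 CPM per control and covers counting error only.

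Rat-derived counts in a tumour were estimated from the controls. The median over the controls of a gene's count per host read was multiplied by the host reads of that tumour. Host reads were computed from the count total of a library and the graft percentage in its labels. That treats all counted reads as graft reads, which the labels do not state. Structural small RNAs (5715 genes) were kept or left out.

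Members were chosen by gene symbol, and the members and lists were chosen with earlier results of these data known. Named with values were the 12 members with the highest levels, the 6 highest and 6 lowest log2 fold changes of recurrent over primary tumours with all at an unadjusted p under 0.05, members past 4-fold of culture, the 6 with the smallest adjusted p against controls, those with a rat estimate over 10%, and CDH1, CDH2, CDH4, CDH5, CDH11 and CDH13. Other members were named after their values were seen. Whether every library had its own animal is not in the labels, so p-values may in part measure technical spread. The edgeR fits were tested on simulated data. All simulated libraries, controls included, were drawn from mean tumour levels, so the different make-up of the real controls was not covered.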

Additional observations from a re-analysis of the deposited data

How the results depend on the processing

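In recurrent against primary tumours edgeR called 0 members, and leaving out any 1 library gave 0. DESeq2 called 2, beside 0.735% of all genes, and edgeR with no filter on low counts called 4 (CDH3, PCDH7, PCDH15 and PCDH17). Against controls 10 members were called, 2 to 9 without any 1 library (2 to 6 of them among the 10), and 0 by limma-voom, which had 15 at an unadjusted p under 0.05. The shares of all genes that go with the 4 and the 15 are not given here, so neither count is a result about the members. Against culture 2 members were past 4-fold, 1 with a pseudocount of 1 CPM and 1 to 2 without any 1 library. No paired analysis was possible because the labels give no replicate numbers that pair samples across groups.

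Of 350 alternative log2 fold changes of 25 named members in recurrent against primary tumours, 326 kept their direction and side of the threshold, 6 newly passed it and 18, in 10 members, turned direction. With the library name prefix as a covariate these were CDH10 at -1.60, CDH2 at 0.075, CDH6 at -0.12, PCDH8 at 0.18, PCDHB7 at 0.013, PCDHGB2 at 0.19 and PCDHGC3 at 0.18. CDH24 was at 0.034 with limma-voom and PCDH1 at -0.032 with the graft percentage as a covariate. Without any 1 library CDH2 ranged from -0.13 to 0.0025, CDH24 from -0.19 to 0.089, PCDH1 from -0.086 to 0.22 and PCDHGA9 from -0.11 to 0.25. The cause was not tested. Against controls the median of all genes was 0.21 with edgeR and 0.04 with DESeq2. Depth limits the alpha genes and the type II members with few counts, which could not be tested.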
